A study of Homo sapiens with 9 samples.

Results

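The keratin genes and the keratin-associated protein genes were followed through BET bromodomain inhibition in MDA-MB-231, an established triple-negative breast cancer cell line with mesenchymal traits. Members were chosen by name, as KRT followed by a number (with or without a letter A to C) or KRTAP followed by a subfamily and a copy number, so that pseudogenes and antisense genes were left out. This gave 131 of the 14884 named genes on the array, 47 keratins and 84 keratin-associated proteins. KRT18 and KRTAP21-1 were the 2 members with more than 1 row, and for them the brightest row, by its average on the 9 arrays, was used. Levels therefore took part in the choice of rows and are given as a description, without a test. A further 18 genes that RefSeq names by the same pattern had no named row and were not analysed here, among them KRT17, KRT34, KRT6A, KRT6B, KRT81 and KRT86.

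There were 3 groups of 3 samples, each sample read on its own Human Gene 2.0 ST array. The controls had received no agent and were labelled time 0. The treated cells had received 500 nM JQ1, a small molecule that displaces BET proteins from acetylated chromatin, for 12 h or for 24 h. No vehicle is named and the controls match neither time, so JQ1, its solvent and time in culture cannot be told apart. All the samples come from 1 cell line, and separate cultures are not mentioned for the replicates: the p-values rest on a spread between samples that could be purely technical.

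Keratins are the intermediate filament proteins of epithelial cells. Each filament pairs a type I with a type II keratin, and the pair changes with the epithelium: KRT8 with KRT18, together with KRT7 and KRT19, in simple epithelia such as the luminal layer of the breast, other pairs in skin, and a separate set in hair and nail. Keratin-associated proteins are small proteins of the hair shaft, rich in cysteine or in glycine and tyrosine, that embed the hair keratins. Their genes lie in clusters of closely similar copies, and such transcripts are not what a breast cell line is known for.

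Of 7 genes taken as high in this line, 5 had a named row and all 5 lay above the median of the named genes (MSN, AXL, EGFR, VIM and CD44), with a mean over the list of 10.56 to 10.60 on the control arrays. Of 7 genes taken as low in this line, 5 had a named row, and ERBB2 and CDH1 had none. ESR1, PGR and FOXA1 lay below that median, whereas GATA3 (control mean 6.94) and EPCAM (6.44), contrary to the list, lay above it. None of the 5 keratinocyte markers read (KRT1, KRT10, DSG1, DSG3 and IVL) lay above it, and their mean stayed between 3.90 and 4.04 on all arrays. The same held for the markers read for leukocytes (2 of 5 genes), fibroblasts (1 of 4) and endothelium (2 of 4). Of the 6 hair cortex markers, LEF1 and KRT85 lay above it and HOXC13, FOXN1, KRT31 and KRT35 below, and the list's mean was 5.46 to 5.56 on control arrays, 5.35 to 5.60 at 12 h and 5.31 to 5.42 at 24 h. Control 3 stood apart from controls 1 and 2. Controls 1 and 2 differed with an SD of 0.213 log2 over all rows of the table, and control 3 differed from them with SDs of 0.385 and 0.389, while it differed from JQ1 12 h replicate 2 with 0.314. The counts of called genes and the differences of the called genes are therefore also given without it.

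KRTAP2-3 was the member whose row had the highest mean and the one that fell most, and KRTAP4-8, a keratin-associated gene close to it, fell as well. The promoters of the KRTAP2 copies are shown here because the copies resemble each other closely. Of these copies, only KRTAP2-3 had a row above the dim bulk. The promoter of KRTAP4-8 is shown because it was the other keratin-associated gene called lower. Each sequence runs 5′ to 3′ on the gene's own strand, from 60 bases before the TATAAA box nearest to the transcription start (in capitals) to 40 bases after it, or to the last base before the start that RefSeq annotates where that comes first (assembly GRCh38.p14, chromosome 17, minus strand for all 5).
KRTAP2-1, chr17:41047317-41047419: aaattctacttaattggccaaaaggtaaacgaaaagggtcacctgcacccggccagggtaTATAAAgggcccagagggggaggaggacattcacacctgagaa
KRTAP2-2, chr17:41055258-41055363: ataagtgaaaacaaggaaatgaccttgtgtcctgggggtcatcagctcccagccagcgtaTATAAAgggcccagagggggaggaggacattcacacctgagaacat
KRTAP2-3, chr17:41060115-41060202: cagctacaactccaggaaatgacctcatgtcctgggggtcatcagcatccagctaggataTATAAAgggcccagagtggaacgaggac
KRTAP2-4, chr17:41065892-41065997: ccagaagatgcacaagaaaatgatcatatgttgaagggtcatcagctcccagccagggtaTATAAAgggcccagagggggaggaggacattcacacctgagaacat
KRTAP4-8, chr17:41098143-41098232: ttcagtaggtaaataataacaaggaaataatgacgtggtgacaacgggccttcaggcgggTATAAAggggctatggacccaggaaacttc
After the box, KRTAP2-1, KRTAP2-2 and KRTAP2-4 were identical over all bases compared (37, 37 and 40 bases for the 3 pairs), and KRTAP2-3 matched each of them at 19 of 22 bases. In the 60 bases before the box KRTAP2-3 matched KRTAP2-2 at 43, KRTAP2-4 at 30 and KRTAP2-1 at 26. KRTAP4-8 matched KRTAP2-3 at 15 of these 60 bases. All matches were counted position by position from the box, without gaps, so an inserted or missing base would hide similarity. The box began 28 bases before the annotated start in KRTAP2-3, 30 in KRTAP4-8, 43 in KRTAP2-1, 58 in KRTAP2-4 and 73 in KRTAP2-2.

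The box itself was common in the family. RefSeq promoters, the 250 bases before and 50 after each start, were at hand for 102 of the 131 members. TATAAA was found on either strand in 72 of them (70.6%), in 54 of 70 keratin-associated genes (77.1%) and 18 of 32 keratins (56.2%), against 3264 of 27305 promoters of all genes (12.0%). An AP-1 type motif, TGANTCA, occurred in 5.88% of the members' promoters and 7.76% of all promoters, and GGAATG, a TEAD type motif, in 12.7% of the members' promoters and 3836 of all 27305. These are matches of letters in a fixed window and show nothing about binding. Neither TGANTCA nor GGAATG was found in the windows of KRTAP2-3 and KRTAP4-8. Of the members called in any comparison only 3 had a promoter at hand, these and KRT8. The window of KRT8 held GGAATG and no TGANTCA.

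Most members lay in the dim bulk of the array. The line taken was the median of all named genes, a log2 value of 6.13, and 12 of 131 members had a mean above it (4 of 47 keratins and 8 of 84 keratin-associated genes). A row's level depends on its probes, so the order of rows is not an order of transcript amounts. The 12 were KRTAP2-3 (mean of 9 arrays 10.25), KRT18 (10.22), KRTAP5-7 (8.98), KRT19 (7.85), KRTAP10-6 (7.55), KRTAP9-2 (7.31), KRTAP10-9 (7.19), KRT8 (6.94), KRTAP10-12 (6.86), KRTAP5-1 (6.69), KRTAP9-8 (6.29) and KRT85 (6.26). Just under the line lay KRTAP17-1 (5.97) and KRTAP12-4 (5.96). By a stricter line, the 90th percentile (7.88) of the rows without a gene symbol, which were not shown to be silent, only KRTAP2-3, KRT18 and KRTAP5-7 remained. By a laxer one, the highest of 10 trace amine and vomeronasal receptor genes (5.66), sensory receptors not known in breast, there were 22.

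**Figure D1:**
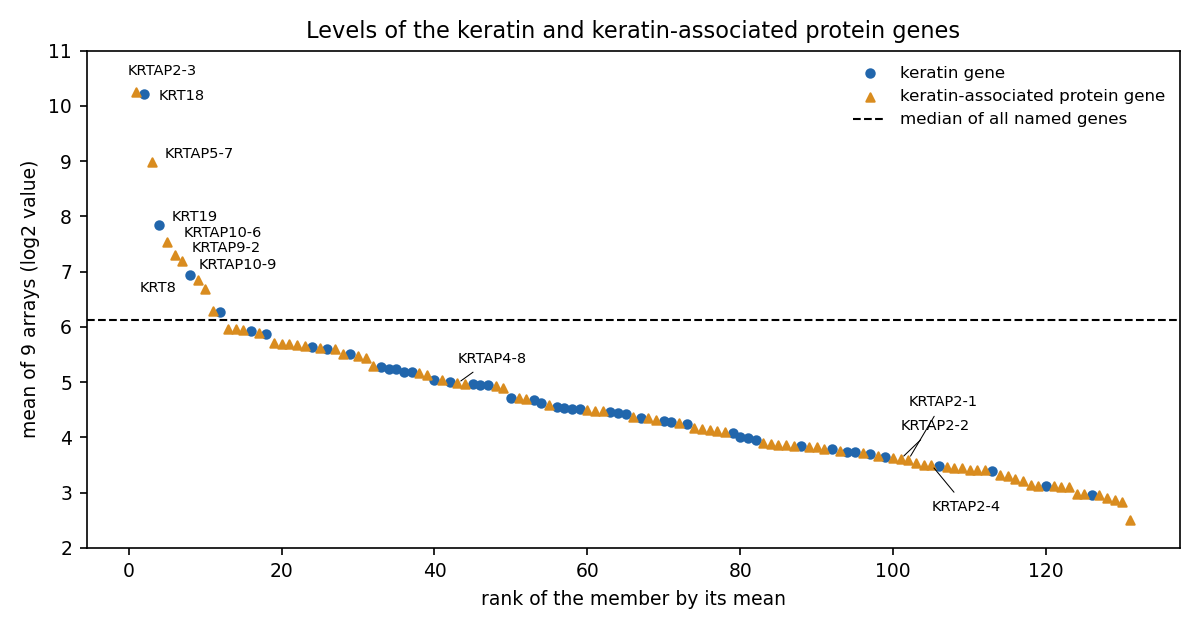
Mean log2 value over the 9 arrays (y axis) of the 131 members in order of that mean (x axis, rank), with keratins as circles and keratin-associated protein genes as triangles; the dashed line is the median of all named genes. Of the 12 members above the line, KRTAP2-3 at 10.25 and KRT18 at 10.22 stand highest, while KRTAP2-1, KRTAP2-2 and KRTAP2-4 lie between 3.50 and 3.61.

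Of the 5 simple epithelial keratins 3 (KRT8, KRT18 and KRT19) lay above the line and 2 below it, KRT7 (5.51) and the gut keratin KRT20. None of the 20 keratins of skin and other stratified epithelia lay above it (2.96 to 5.63), nor did any of the 9 inner root sheath keratins (3.39 to 5.25), and among 13 hair keratins only KRT85, a type II keratin of the hair cortex, did, marginally. KRT5 and KRT14, the pair of basal epithelial cells, and KRT16, a keratin of activated skin, were all below it, KRT14 with a mean of 5.19 and KRT16 with 5.60. Because the line uses the mean over all arrays, it counts genes that fell as dimmer: KRTAP4-8 had a mean of 4.98 but 6.13 in the controls.

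Differences were tested with limma over all 14884 named genes and called at a Benjamini-Hochberg adjusted p under 0.05. The adjusted p-values given are from that fit unless arrays left out, another fit or another test is named. At 12 h 5 of 131 members were called (3.82%), 1 higher and 4 lower, where 7.93% of all genes tested were called (3.54% higher and 4.39% lower). At 24 h 8 were called (6.11%), 4 higher and 4 lower, where 11.5% of all genes were (5.17% higher and 6.34% lower). Most members are dim, and among genes above the median level alone 2 of 12 members were called at 12 h, where 16.5% of 7442 genes were, and 4 of 12 at 24 h, where 23.4% were. The median difference of the 131 members was 0.01 at 12 h and 0.02 at 24 h, against 0.01 for all genes in both. Both comparisons use the same 3 control arrays. The 24 h against 12 h comparison called 0 members by limma and 1 gene of all those tested (0.00672%). Without control 3 the counts were 6, 8 and 1 of 131, with 20.1%, 20.9% and 0.148% of all genes called. Without control 1 they were 3, 3 and 0 (3.65%, 6.79% and 0.00672% of all genes), and without control 2 they were 2, 2 and 0 (3.79%, 6.95% and 0.00672%). At 12 h, 2 members were called without JQ1 12 h replicate 1 (4.07% of all genes) and 2 without JQ1 12 h replicate 2 (3.8%). At 24 h, 5 were called without JQ1 12 h replicate 1 (10.1%), 4 without JQ1 24 h replicate 1 (6.14%) and 2 without JQ1 24 h replicate 3 (5.28%), and the last of these settings called 1 member between 24 h and 12 h (0.0134%).

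**Figure D2:**
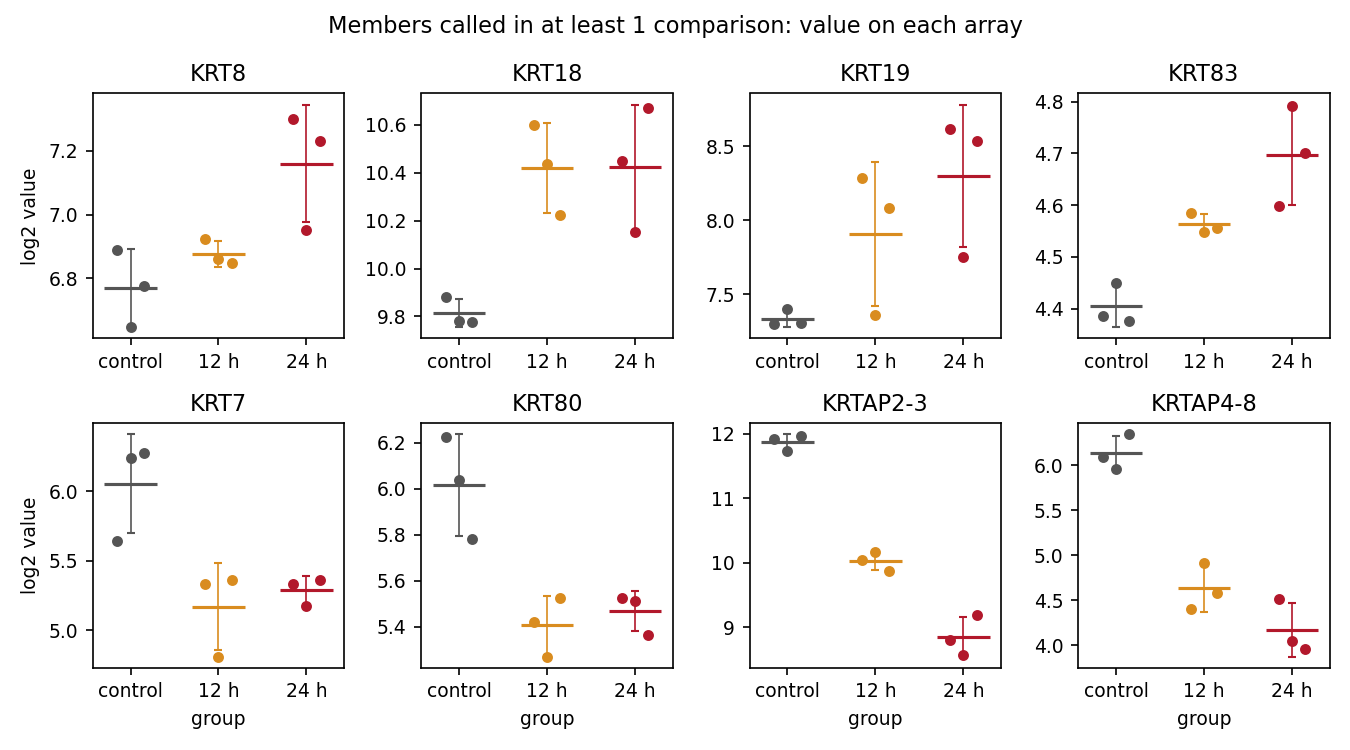
Log2 value (y axis, its own range in each panel) on each of the 9 arrays for the 8 members called in at least 1 comparison, by group (x axis); dots are arrays in replicate order, horizontal lines group means and bars SD over 3 arrays. KRTAP2-3 steps down from 11.74 to 11.97 in controls to 9.88 to 10.17 at 12 h and 8.57 to 9.19 at 24 h, while KRT18 stands higher on all 6 JQ1 arrays than on the controls.

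KRTAP2-3 read 11.92, 11.74 and 11.97 on controls 1 to 3, 10.04, 10.17 and 9.88 at 12 h, and 8.80, 8.57 and 9.19 at 24 h. The 3 groups did not overlap, and the 24 h arrays were all below the 12 h arrays. Its mean fell 3.59-fold by 12 h (log2 difference −1.85, SE 0.15, adjusted p = 0.00044) and 8.13-fold by 24 h (−3.02, SE 0.15, adjusted p = 2.4e-05). The call held when any of the 9 arrays was left out, at both times (adjusted p up to 0.0053 and 0.00043), with −1.80 and −2.98 without control 3. The step from 12 h to 24 h was 2.26-fold (−1.18, SE 0.15) and did not pass the limma test (adjusted p = 0.068); it did without control 3 (−1.18, adjusted p = 0.031) or without JQ1 24 h replicate 3 (−1.34, adjusted p = 0.038). This gene's 24 h difference was known when the family was picked, so it is a description of the reason for the choice as much as a result.

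Whether the 4 KRTAP2 copies moved together could not be read from these arrays, because the rows of the other 3 lay at the dim end. KRTAP2-1 read 3.25, 3.34 and 3.59 on the controls, 4.22, 3.45 and 3.58 at 12 h and 3.68, 3.67 and 3.58 at 24 h. KRTAP2-2 read 3.54, 3.55 and 3.59, then 3.54, 3.44 and 3.91, then 3.84, 3.74 and 3.34. KRTAP2-4 read 3.49, 3.63 and 3.49, then 3.49, 3.45 and 3.48, then 3.49, 3.44 and 3.58. The groups overlapped in all 3 of these copies, whose 27 values ran from 3.25 to 4.22, far inside the dim part of the array. Their differences from control were 0.36, 0.07 and −0.06 at 12 h and 0.25, 0.08 and −0.04 at 24 h (SE 0.18, 0.15 and 0.07), and none was called (adjusted p 0.31 or more).

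The change of KRTAP2-3 minus that of KRTAP2-4 was −1.78 log2 by 12 h and −2.99 by 24 h, with an exact two-sided permutation p of 0.10 (adjusted p = 0.20 over the 18 contrasts between copies), the smallest that 3 arrays against 3 allow. Against rows this dim the contrast restates the fall of KRTAP2-3 and says nothing further about the copies. A gene whose row sits at the floor cannot show a fall, so a fall in these 3 copies was not detectable here. The probe sequences were not used here, so whether the KRTAP2-3 row also takes up transcripts of its copies was not tested.

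**Figure D3:**
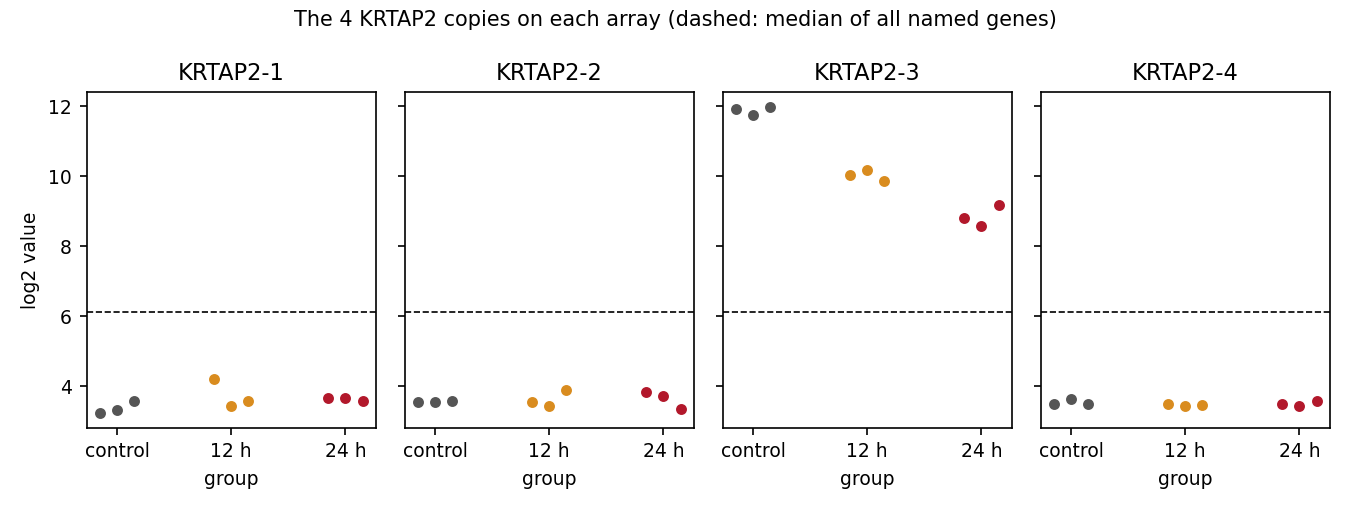
Log2 value (shared y axis) of the 4 KRTAP2 copies on each of the 9 arrays by group (x axis), each dot 1 array in replicate order; the dashed line is the median of all named genes, 6.13. KRTAP2-3 descends from 11.88 on average in controls to 8.85 at 24 h and stays above the line, while the 27 values of the other copies stay between 3.25 and 4.22.

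KRTAP4-8 read 6.09, 5.96 and 6.34 on the controls, 4.40, 4.92 and 4.58 at 12 h and 4.51, 4.04 and 3.96 at 24 h. All 6 JQ1 values lay below the lowest control, while the 12 h and 24 h arrays overlapped. The fall was 2.83-fold at 12 h (−1.50, SE 0.18, adjusted p = 0.0023) and 3.89-fold at 24 h (−1.96, SE 0.18, adjusted p = 0.00049). It was called with any array left out (adjusted p up to 0.014 and 0.004), with −1.39 and −1.85 without control 3. The controls sat at the line, and the treated means of 4.63 and 4.17 lay below the laxer line (5.66) as well. The folds are therefore those of the values read. They give no more than a lower limit for the transcript, and only if the row reads KRTAP4-8 alone, which was not tested. The step from 12 h to 24 h was not called (−0.46, SE 0.18, adjusted p = 0.69). The other 10 KRTAP4 genes read had means between 2.83 and 3.90, and they were not called in any comparison.

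KRTAP2-3 and KRTAP4-8 lie close together. In the order of the GRCh38.p14 gene table, 34 keratin-associated genes follow one another on chromosome 17 from KRTAP3-3 to KRTAP17-1, 29 of them read here, and KRTAP2-4 and KRTAP4-7 are the 2 that separate KRTAP2-3 from KRTAP4-8. The other 27 genes read in this stretch were not called with all arrays. Their differences from control ran from −0.36 to 0.36 at 12 h and from −0.21 to 0.32 at 24 h. KRTAP9-8 was at the low end of the 12 h range and KRTAP2-1 at the high end. KRTAP9-8 read 6.33, 6.63 and 6.33 on controls and 6.17, 5.96 and 6.09 at 12 h, without overlap, but was not called (adjusted p = 0.076) except without control 3 (−0.41, adjusted p = 0.032), and at 24 h its groups overlapped (−0.07). KRTAP9-4 was likewise called at 24 h without control 3 (0.41, adjusted p = 0.05 after rounding) and not with all arrays (0.32, adjusted p = 0.16). Along the stretch only KRTAP9-2 and KRTAP9-8 among these 27 had means above the line. The 8 called members lay on chromosome 12 (KRT7, KRT8, KRT18, KRT80 and KRT83, of 22 read there) and on chromosome 17 (KRT19, KRTAP2-3 and KRTAP4-8, of 54).

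**Figure D4:**
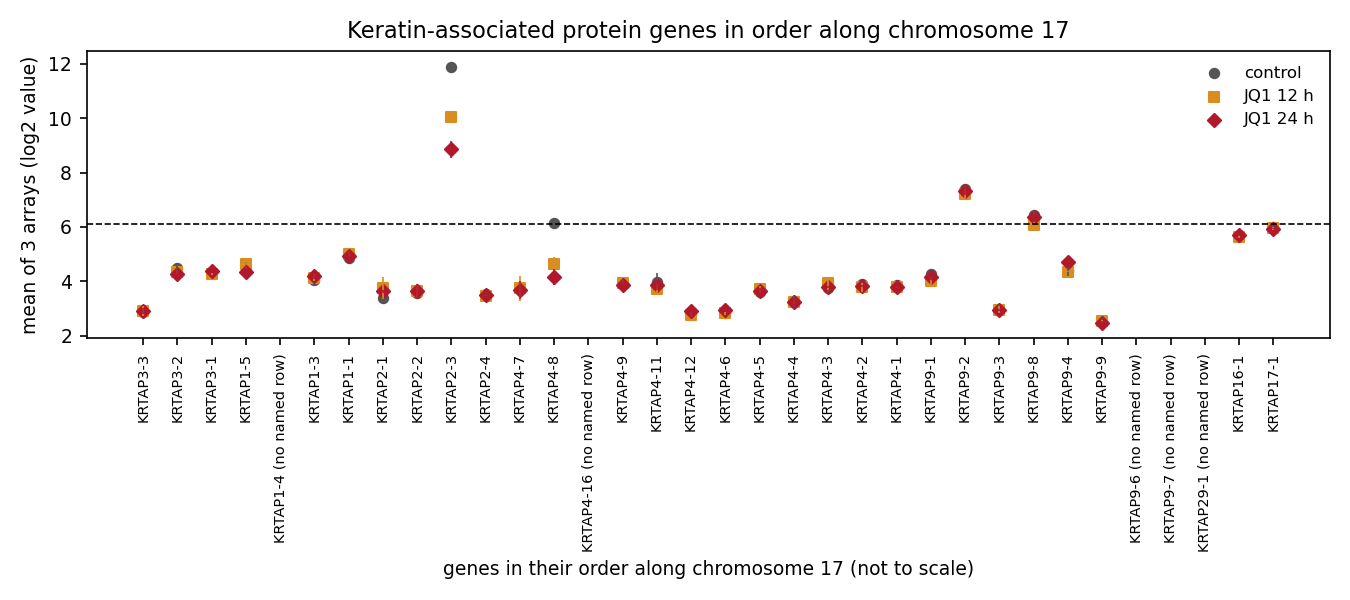
Mean log2 value of 3 arrays (y axis, bars are SD) for control, JQ1 12 h and JQ1 24 h, for the keratin-associated protein genes in their order along chromosome 17 (x axis, order only, not to scale; genes without a named row are marked); the dashed line is the median of all named genes. The groups separate at KRTAP2-3 and KRTAP4-8, and the 27 other genes read lie within 0.36 log2 of control at both times.

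Of the 5 simple epithelial keratins, 3 rose by 24 h (KRT8, KRT18 and KRT19), KRT7 fell and KRT20 was not called (0.18 at 12 h and 0.23 at 24 h). KRT18, the type I partner of KRT8, read 9.88, 9.78 and 9.78 on controls, 10.60, 10.44 and 10.22 at 12 h and 10.45, 10.15 and 10.67 at 24 h. All 6 treated values lay above the controls, and the times overlapped. It rose 1.52-fold at 12 h (0.61, SE 0.14, adjusted p = 0.030) and 1.53-fold at 24 h (0.61, SE 0.14, adjusted p = 0.022). Without control 3 both calls held (0.59 and 0.59). The 12 h call was lost on leaving out control 1 or 2, array 1 or 2 of the 12 h group or array 1 of the 24 h group (adjusted p up to 0.11). The 24 h call was lost on leaving out control 1 or 2 or array 1 or 3 of the 24 h group (up to 0.081). The second, dimmer row of KRT18 read 7.29 ± 0.06 in controls, 7.67 ± 0.05 at 12 h and 7.79 ± 0.20 at 24 h (SD, n = 3 each). It had differences of 0.38 (adjusted p = 0.055, over all named rows) and 0.50 (adjusted p = 0.014), the same direction as the row used.

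KRT8 read 6.89, 6.65 and 6.78 on controls, 6.92, 6.86 and 6.85 at 12 h and 7.30, 6.95 and 7.23 at 24 h. The 24 h arrays were all above the controls and the 12 h arrays overlapped with them. It was not called at 12 h (0.11, SE 0.10, adjusted p = 0.66) and was 1.31-fold higher at 24 h (0.39, SE 0.10, adjusted p = 0.043). That call was kept without control 3 (0.39, adjusted p = 0.042) or JQ1 24 h replicate 2, and lost without any other single array (adjusted p up to 0.15), with a mean-dependent prior variance and after quantile normalization.

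KRT19, a type I keratin of simple epithelia that lacks the usual tail domain, read 7.30, 7.40 and 7.31 on controls, 8.29, 7.36 and 8.08 at 12 h and 8.62, 7.75 and 8.54 at 24 h. Replicate 2 was the lowest JQ1 array at each time, and at 12 h it lay within the control range. The difference was 0.58 at 12 h (SE 0.27, adjusted p = 0.26) and 0.97 at 24 h, a 1.95-fold rise (SE 0.27, adjusted p = 0.049). The 24 h call was kept without JQ1 12 h replicate 2 or JQ1 24 h replicate 2 and lost without any other array, control 3 included (0.95, adjusted p = 0.051; up to 0.17). JQ1 24 h replicate 2 was also the lowest of its group for KRT8 and KRT18.

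KRT7, the type II keratin of simple glandular epithelia, went the other way. It read 5.64, 6.24 and 6.28 on controls, 5.34, 4.81 and 5.36 at 12 h and 5.34, 5.18 and 5.36 at 24 h, with no overlap of treated and control arrays. It fell 1.85-fold at 12 h (−0.88, SE 0.19, adjusted p = 0.026) and 1.70-fold at 24 h (−0.76, SE 0.19, adjusted p = 0.035). Without control 3 the calls held (−0.77 and −0.65, adjusted p = 0.023 and 0.048). At 12 h the call was lost without control 2 or any JQ1 12 h array (adjusted p up to 0.098). At 24 h it was lost without control 2, JQ1 12 h replicate 1 or any JQ1 24 h array (up to 0.12).

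KRT80, a type II keratin of many epithelia, was the only 1 of the 20 skin and stratified keratins called. It read 6.22, 6.04 and 5.78 on controls, 5.42, 5.27 and 5.53 at 12 h and 5.53, 5.51 and 5.37 at 24 h, so that all treated arrays were below the controls. It fell 1.52-fold at 12 h (−0.61, SE 0.12, adjusted p = 0.017) and 1.46-fold at 24 h (−0.55, SE 0.12, adjusted p = 0.019), and without control 3 by 0.72 and 0.66 on the log2 scale (adjusted p = 0.0011 and 0.0017). The calls were lost on leaving out control 1 or 2 at either time, array 1 or 2 of the 12 h group at 12 h and array 1 or 3 of the 24 h group at 24 h (adjusted p up to 0.068 and 0.083). KRT7 and KRT80 both had control means a little under the line, 6.05 and 6.01, so each fell within the dim part of the array.

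KRT83, a type II hair keratin, read 4.39, 4.45 and 4.38 on controls, 4.58, 4.55 and 4.56 at 12 h and 4.60, 4.79 and 4.70 at 24 h. The difference at 24 h was 0.29 (SE 0.07, adjusted p = 0.031; 0.28 and adjusted p = 0.038 without control 3), and at 12 h 0.16 (SE 0.07, adjusted p = 0.24). It was lost on leaving out control 1 or 2, array 2 of the 12 h group or array 2 or 3 of the 24 h group (adjusted p up to 0.098). The treated arrays were above the controls by a small amount on a very dim row, and its close relatives KRT81 and KRT86 were not analysed here, so the row may hold signal shared with them, which was not tested. The other 12 hair keratins and all 9 inner root sheath keratins read were not called at 12 h or 24 h with all arrays. KRT37, a hair keratin, was called at 12 h without JQ1 12 h replicate 3 (0.37, adjusted p = 0.049; 0.27 and adjusted p = 0.15 with all arrays).

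**Figure D5:**
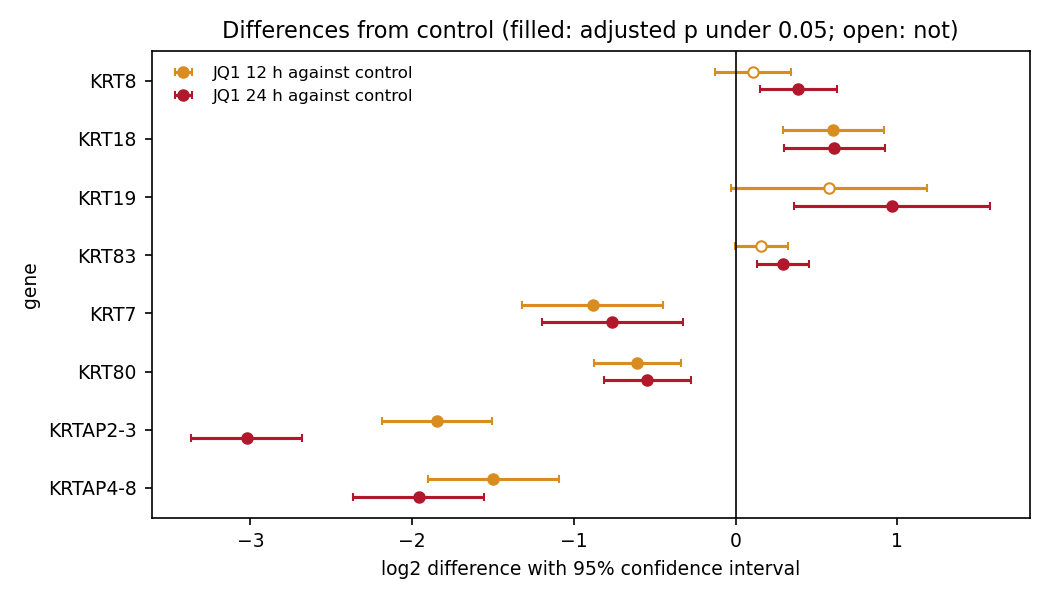
Log2 difference from control (x axis) with its 95% confidence interval for the 8 called members (y axis) at 12 h and at 24 h; filled dots passed an adjusted p under 0.05 and open dots did not. KRT8, KRT18, KRT19 and KRT83 lie right of 0 and KRT7, KRT80, KRTAP2-3 and KRTAP4-8 left of it.

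The remaining 123 members, called in no comparison with all arrays, had differences from −0.36 to 0.39 at 12 h and from −0.37 to 0.32 at 24 h. Of these, KRTAP10-7 was called at 24 h without JQ1 24 h replicate 1 (0.38, adjusted p = 0.027; 0.26 and adjusted p = 0.15 with all arrays). The largest group among those above the line, 7 keratin-associated genes from KRTAP5-7 to KRTAP9-8, had differences from −0.36 (KRTAP9-8) to 0.17 (KRTAP10-9) at 12 h and from −0.27 (KRTAP5-7) to 0.16 (KRTAP5-1) at 24 h. KRTAP5-7, the brightest of them, read 9.11, 9.23 and 9.07 on controls, 9.12, 8.85 and 8.82 at 12 h and 8.83, 8.84 and 8.93 at 24 h. At 24 h all its arrays were below the controls, but the difference was not called (−0.27, SE 0.09, adjusted p = 0.11). KRT85 read between 6.11 and 6.42 on all arrays, with differences of 0.03 and 0.02. The 12 h and 24 h arrays of 12 and 16 members did not overlap with the controls (9.16% and 12.2%), against 22.2% and 26.1% of all genes tested.

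Desmosomes and linker proteins hold keratin filaments at the cell edge. Of 15 desmosome and linker genes read (17 listed), 2 rose and 1 fell at each time. Of all genes tested 7.93% were called at 12 h and 11.5% at 24 h, and of those above the median level 16.5% and 23.4%. Above that level lay 8 of the 15. PLEC, plectin, which links keratin filaments to hemidesmosomes and to actin, rose from 8.38 ± 0.0085 to 9.27 ± 0.074 and 9.66 ± 0.052 (SD, n = 3 each; 0.89 and 1.28, SE 0.07 for both, adjusted p = 0.0003 and 3.5e-05). JUP, plakoglobin, rose by 0.96 (adjusted p = 0.033) and 1.15 (adjusted p = 0.012), and by 0.72 and 0.92 without control 3. DSC2, a desmosomal cadherin, fell by 1.65 and 1.53 on the log2 scale (adjusted p = 0.0058 and 0.0061). Its mean was 6.76 in controls, 5.11 at 12 h and 5.23 at 24 h. The treated means of DSC2 lay below the laxer line (5.66), so these falls are those of the values read. DSP, desmoplakin, which anchors keratins in desmosomes, was not called (−0.47 and −0.40). PLEC and DSC2 kept both calls with any array left out, with 0.90 and 1.28 for PLEC and −1.95 and −1.83 for DSC2 without control 3. JUP lost the 12 h call without control 2, any JQ1 12 h array or JQ1 24 h replicate 3 (adjusted p up to 0.12) and the 24 h call without JQ1 24 h replicate 1 or 3 (up to 0.054).

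Other intermediate filament genes were represented by 8 of 14 listed. The shares of all genes called, 7.93% at 12 h and 11.5% at 24 h, stand beside the counts that follow. LMNA, which encodes the nuclear lamins A and C, rose by 0.61 at 12 h (adjusted p = 0.013; 0.054 without JQ1 12 h replicate 1) and by 0.92 at 24 h (adjusted p = 0.0016), or by 0.53 and 0.85 without control 3, and the other 7, VIM among them (0.28 and 0.30, adjusted p = 0.087 and 0.056), were not called. Of 11 cornified envelope genes read (14 symbols listed, with LORICRIN under both its old and its new symbol), 1 was called, at 24 h. That gene was CNFN, cornifelin (0.43, adjusted p = 0.035; 0.39 without control 3; lost without control 1, JQ1 12 h replicate 3 or any JQ1 24 h array, up to 0.13). IVL, FLG and LORICRIN, the best known of them, were not called and lay below the line.

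Among 15 regulators of keratin genes read (18 listed), 2 fell at 12 h and 3 at 24 h, and the rest were not called. Of all genes tested 7.93% were called at 12 h (4.39% lower) and 11.5% at 24 h (6.34% lower). SOX9, a hair follicle and mammary transcription factor, fell by 0.74 and 0.54 on the log2 scale (adjusted p = 0.0065 and 0.019; −0.76 and −0.55 without control 3; the 24 h call was lost on leaving out control 1 or 2 or array 2 or 3 of the 24 h group, up to 0.067). GATA3, a luminal factor, fell by 0.38 and 0.41 (adjusted p = 0.03 and 0.017; −0.36 and −0.39 without control 3; the 12 h call was lost without control 1 or 2 or any JQ1 12 h array, up to 0.10, and the 24 h call without control 2, at 0.061). LEF1, the Wnt effector used in hair cortex, was called lower at 24 h (−0.67, adjusted p = 0.032; −0.53 without control 3; lost on leaving out control 1, array 3 of the 12 h group or array 1 or 3 of the 24 h group, up to 0.13) and stood at −0.46 at 12 h (adjusted p = 0.14). HOXC13, a regulator of hair keratin genes, and GRHL2 were below the line on average and were not called. KLF4 and KLF5 lay above it and were not called (KLF4 −0.47 at both times).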

How the data were processed

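Total RNA of 9 MDA-MB-231 samples was read on Affymetrix Human Gene 2.0 ST arrays. The deposited table holds 53617 rows of log2 values that the authors had already normalized; the submitters' processing notes name Transcriptome Analysis Console, and its summary method, settings and version are not given in the sources used here. Gene symbols came from the annotation of the array platform, which gives 1 symbol to 16098 rows and none to 37519. The row with the highest mean stood for each of 14884 genes. limma 3.58.1 in R 4.3.3 (lmFit and eBayes, 1 mean per group, all 9 arrays) was fitted to all of them, with Benjamini-Hochberg adjustment within each comparison and calls at an adjusted p under 0.05. The script was tested on simulated data. With 3 arrays a group, the number of arrays limits the precision. KRTAP2 copies were compared by exact two-sided permutation of the arrays.

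Members and gene lists were chosen with earlier results of these data known. All 8 members called in a comparison are named, with those above and next to the level line all KRTAP2 copies and the called partner genes; other genes named were chosen after their values were seen. The planned level line, the 95th percentile of olfactory receptor genes, could not be used because 1 such gene was named. The median of the named genes, a listed alternative, took its place, and the line at the highest trace amine or vomeronasal receptor gene was added after seeing the data. Promoters are those of RefSeq on GRCh38.p14, matched by symbol. Probe and protein sequences were not used here.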

Additional observations from a re-analysis of the deposited data

How the results depend on the processing

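KRTAP2-3 kept its calls at 12 h and 24 h under every alternative, and KRTAP4-8 wherever it was tested. The count of members called moved more. Leaving out 1 array at a time gave 2 to 6 members at 12 h (5 with all arrays), 2 to 8 at 24 h (8 with all) and 0 to 1 between 24 h and 12 h (0 with all). A fit of only the 6 arrays compared called 3 at 12 h and 2 at 24 h, with 3.88% and 6.68% of all genes called. Testing only genes above the median level, which leaves 12 members, called 2 and 4, with 16.5% and 23.4% of 7442 genes called. The number of members above the level line was 12, and 3 or 22 under the stricter and laxer lines. Lines from olfactory receptor genes were not run, since 1 was named. Without control 1 the 24 h count was 3 and without control 2 it was 2, and the cause was not tested.

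Replicates with the same number did not pair. Deviations from group means correlated at −0.32 to 0.22 over 9 same-numbered pairs, of which 2 exceeded 0.1, and at −0.27 to 0.29 over 18 others. The arrays did share a pattern across numbers. Control 3 correlated at 0.29 with JQ1 12 h replicate 2 and at 0.28 with JQ1 24 h replicate 2, and these JQ1 arrays at 0.22 with each other. With controls 1 and 2 the correlations were −0.19 and −0.32 for JQ1 12 h replicate 2 and −0.27 and −0.23 for JQ1 24 h replicate 2. A block by replicate number does not place control 3 with these JQ1 arrays, and the cause was not tested. With the replicate number as a block, 4 members were called at 12 h, 6 at 24 h and 0 between the times, where 6.5%, 9.93% and 0.00672% of all genes were called. It lost KRT18 at 12 h (adjusted p = 0.051), KRT7 (0.051) and KRT83 (0.062) at 24 h, and of the partner genes GATA3 at 12 h (0.063) and LEF1 (0.061) and CNFN (0.077) at 24 h. Single differences were followed for the called members, those above or next to the level line, the KRTAP2 copies and the called partner genes. The gained calls of KRT37, KRTAP9-4 and KRTAP10-7 given above lie outside this set. Of its 1235 alternative values of single differences, 93 lost a call and 3 gained one. In 47 of them, over 16 genes, the sign changed, each time on leaving out 1 array and with the difference called neither before nor after; the largest was 0.17 with all arrays. The log2 difference of these genes over the 9 fits without 1 array spanned 0. At 12 h against control it ran for KRT85 from −0.037 to 0.12, KRTAP2-2 from −0.067 to 0.16, KRTAP5-1 from −0.093 to 0.056 and KRTAP10-12 from −0.16 to 0.018. It also ran for KRTAP12-4 from −0.046 to 0.11 and KRTAP17-1 from −0.097 to 0.017. At 24 h against control it ran for KRT85 from −0.038 to 0.074, KRTAP2-2 from −0.021 to 0.23, KRTAP2-4 from −0.074 to 0.011 and KRTAP5-1 from −0.030 to 0.30. It also ran for KRTAP9-2 from −0.13 to 3.7e-05, KRTAP9-8 from −0.12 to 0.028, KRTAP10-6 from −0.12 to 0.029 and KRTAP10-12 from −0.16 to 0.18. It also ran for KRTAP12-4 from −0.093 to 0.056 and KRTAP17-1 from −0.11 to 0.0040. Between 24 h and 12 h it ran for KRT7 from −0.057 to 0.22, KRT18 from −0.12 to 0.14, KRT80 from −0.0057 to 0.12 and KRT85 from −0.096 to 0.061. It also ran for KRTAP2-1 from −0.26 to 0.13, KRTAP2-2 from −0.092 to 0.16, KRTAP2-4 from −0.0094 to 0.062 and KRTAP5-1 from −0.018 to 0.31. It also ran for KRTAP5-7 from −0.12 to 0.029, KRTAP9-2 from −0.020 to 0.17, KRTAP10-9 from −0.16 to 0.015 and KRTAP10-12 from −0.11 to 0.24. It also ran for KRTAP12-4 from −0.13 to 0.023 and KRTAP17-1 from −0.043 to 0.019. The cause was not tested. Dim rows, 119 of the 131 members, limit what could be seen to fall.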

Other observations

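Identical values recurred in the deposited table. Of the 131 members, 67 (51.1%) had the same value, to 5 decimals, on at least 2 arrays, against 44.4% of all named genes. Repeats were found in 54.6% of the members below the level line and in 2 of the 12 above it (16.7%), against 60.4% and 28.4% of all named genes. KRT85 read 6.31 on 4 arrays, control 2, control 3, JQ1 12 h replicate 2 and JQ1 24 h replicate 1. KRT37 read 5.87 on 5 arrays of all 3 groups, and KRTAP16-1 read 5.69 on 5. KRTAP6-1 read 3.41 on 7 arrays and KRTAP10-8 read 4.51 on 6. Among called members, KRT7 had the same value, 5.36, on JQ1 12 h replicate 3 and JQ1 24 h replicate 3. KRT80 had the same value, 5.53, on JQ1 12 h replicate 3 and JQ1 24 h replicate 1. How these values arose was not tested.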
